A study of Homo sapiens with 6 samples.

Results

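The genes described here are the human zinc-finger genes whose symbol is ZNF followed by a number, without the targeted gene ZNF410 itself. Members were kept where the mean whole-number count over 6 libraries of K562 cells was at least 100. This rule kept 197 of the 475 ZNF symbols other than ZNF410, out of 26485 gene symbols in all. Of the other 278 symbols, 67 had no count in any library. K562 is an established line from a human myeloid leukaemia with erythroid features. The study used CRISPR guide RNAs to ask what the zinc-finger factor ZNF410 does for chromatin and enhancers. The wild-type group carried the guide sgNeg2, and 2 groups labelled ZNF410 knockout carried sgRNA1 or sgRNA2, which differ only in the guide named. Each group had 2 libraries, numbered replicate 1 and replicate 2, and all groups shared the line and its culture in IMDM with serum. The labels do not say whether a knockout was a clone or a mixed population, nor what a replicate number stands for.

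Most ZNF proteins carry C2H2 zinc fingers, short folds in which cysteine and histidine residues hold a zinc ion, and arrays of them read DNA sequence. Many also carry a KRAB domain, which recruits the co-repressor TRIM28 and through it histone methylation and heterochromatin proteins, often on transposable elements. KRAB zinc-finger genes arose by repeated duplication and lie in clusters, above all on chromosome 19. Other ZNF genes encode proteins of quite different function, such as factors of ribosome assembly, spindle assembly and RNA metabolism. ZNF410 is itself a C2H2 factor, and its best known target is CHD4, the helicase of the NuRD co-repressor complex.

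ZNF629 was the single member called in knockout against wild type in the fit described below, so its promoter is shown first. The window runs from 250 bases before to 50 bases after the RefSeq start on GRCh38.p14 and is printed 5′ to 3′ on the strand of the gene, at chr16:30787156-30787455 on the minus strand. It held no match to CCCATAA, the core of the motif that ZNF410 is known to bind, on either strand.
ZNF629: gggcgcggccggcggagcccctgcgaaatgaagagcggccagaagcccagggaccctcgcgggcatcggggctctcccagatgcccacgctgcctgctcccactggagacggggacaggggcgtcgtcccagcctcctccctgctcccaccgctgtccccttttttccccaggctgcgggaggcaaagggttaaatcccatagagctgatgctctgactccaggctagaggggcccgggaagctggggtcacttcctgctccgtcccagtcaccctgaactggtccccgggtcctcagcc

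The members whose promoter window did hold the core are shown next, since the core is the sequence looked for in targets of ZNF410. RefSeq windows were found for 174 members, and 4 of them (2.3%) held CCCATAA or its reverse complement TTATGGG. The same search found 1.24% of 6863 promoters of genes that averaged 100 counts or more and 1.85% of all 27305 promoters in the table. The stretches below have 47 bases each, on the strand of the gene, with the match in capitals. They lie at chr3:48240879-48240925 (plus strand, ZNF589), chr9:96778131-96778177 (minus strand, ZNF510), chr10:43574820-43574866 (minus strand, ZNF239) and chr19:58408573-58408619 (plus strand, ZNF584). The ZNF584 window is set on a start that lies inside the RefSeq extent of the gene (chr19:58401558-58418327), as for 28 of the 174 members, while the other 3 windows are at the outermost start.
ZNF589: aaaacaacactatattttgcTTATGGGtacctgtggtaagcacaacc
ZNF510: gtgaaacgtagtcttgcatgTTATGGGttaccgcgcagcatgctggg
ZNF239: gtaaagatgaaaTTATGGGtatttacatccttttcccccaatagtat
ZNF584: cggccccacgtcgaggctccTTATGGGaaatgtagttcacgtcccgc

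These letters are a description of the sequence and not a binding site. None of the 4 genes was called in knockout against wild type, with log2 fold changes, taken within replicate numbers, of -0.11 for ZNF589, -0.19 for ZNF510, -0.18 for ZNF239 and 0.10 for ZNF584. The CHD4 window of the same table held no core match either, so the absence of a match in 300 bases says nothing about binding elsewhere. The members' windows had a median GC content of 63.3% and a median of 24 CpG, against 65.7% and 27 for genes with at least 100 counts and 58.3% and 14 for all promoters.

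Whole-number gene counts summed to 8788816 to 9537470 per library. ZNF410 had 331 and 322 counts with sgNeg2, 175 and 234 with sgRNA1, and 157 and 190 with sgRNA2, and was lower in knockout by a log2 fold change of -0.83 (SE 0.125, edgeR adjusted p 0.00226 with the replicate block, 1.00 without it). The labelled cell type was checked on 12 erythroid markers, and all were present, with GATA1, a master regulator of red cell development, at a mean of 205.5 FPKM (a level scaled by gene length and by library size). Of 11 markers of other cell types, 3 had a whole-number count of 0 in every library (MS4A1, CDH5 and ALB). EPCAM, KRT8 and KRT18 were present at 67.8, 166 and 213 FPKM. Libraries were separated by replicate number, with the deviations of same-numbered libraries from their group means correlated at 0.757 to 0.824 across 9966 genes and at 0.731 to 0.794 across the 197 members. Each comparison is therefore given in a fit that ignores the number and in a fit that takes it as a block and so compares libraries within a number. Nothing in the labels says that the libraries of a group came from separate cultures, so p-values measure only the spread between these libraries, which may be technical. With the block they leave out the spread between the numbers, by a pairing read from these same data. In the fit of 3 groups the common coefficient of variation between libraries was 24.2% without the block and 6.17% with it. The residual degrees of freedom were 3 and 2.

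As a family, the ZNF genes took a small and steady part of the RNA. Their counts were 0.759% and 0.811% of all gene counts with sgNeg2, 0.769% and 0.790% with sgRNA1, and 0.790% and 0.842% with sgRNA2. In each of the 3 groups the share was higher in replicate 2 than in replicate 1, and the ranges of the groups overlapped. Their summed FPKM ran from 2394 to 2536 over the 6 libraries.

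The typical member was expressed at a low level. The median over 196 members of the mean FPKM was 7.59, with quartiles of 4.86 and 12.5, against 17.7 for all genes with at least 100 counts. These counts chose the members, so the levels are a description. A mean FPKM under 5 was found for 53 members, 115 lay from 5 to under 20, and 28 reached 20 or more, of which 6 reached 50. The 10 highest members held 29.6% of the family's summed FPKM.

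The highest levels belonged to ZNF genes with functions other than KRAB repression. ZNF207, which encodes a spindle and kinetochore protein also called BuGZ, led with 161 and 209 FPKM with sgNeg2, 171 and 196 with sgRNA1, and 179 and 199.7 with sgRNA2. All replicate 2 libraries of ZNF207 were above all replicate 1 libraries, and the groups overlapped. ZNF593, the counterpart of a yeast factor of large ribosomal subunit assembly, had 131 and 142 FPKM with sgNeg2, 149 and 144 with sgRNA1, and 140.3 and 132 with sgRNA2. Both sgRNA1 libraries of ZNF593 were above the other 4 libraries, while the sgNeg2 and sgRNA2 libraries overlapped, as did the replicate numbers. ZNF706, a very small zinc-finger protein, had 82.2 and 54.7, 85.7 and 52.4, and 84.4 and 54.0 FPKM in the same order, so the replicate 1 libraries stood above the replicate 2 libraries in every group.

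Ranks 4 to 10 were taken by ZNF146 (57.6 FPKM), a protein made almost only of zinc fingers, ZNF622 (57.4 FPKM), another ribosome assembly factor, ZNF664 (51.9 FPKM), ZNF511 (48.2 FPKM), ZNF787 (42.9 FPKM), ZNF598 (38.7 FPKM), the ubiquitin ligase that marks collided ribosomes, and ZNF24 (36.1 FPKM), a SCAN-domain transcription factor. From ZNF146 to ZNF622 the means differed by less than the spread over libraries, since ZNF146 ran from 55.2 to 60.7 FPKM and ZNF622 from 54.2 to 62.8 FPKM. The knockout log2 fold changes of the 10 highest members lay between -0.01 for ZNF146 and 0.13 for ZNF511, and no adjusted p of theirs was under 0.05 with the block.

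**Figure D1:**
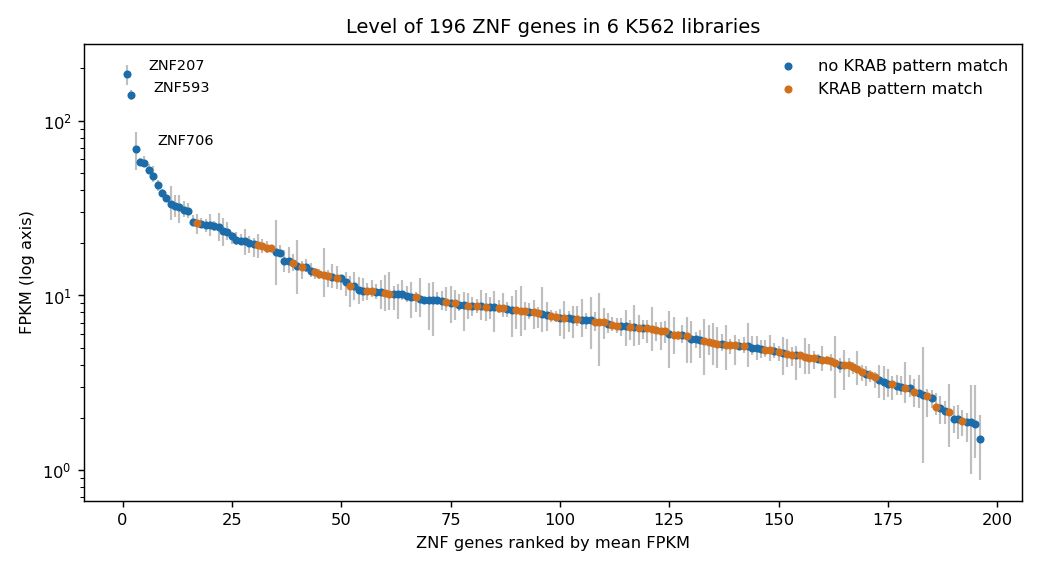
Mean FPKM of 196 ZNF genes (vertical axis, log scale) against their rank (horizontal axis), with a grey line from the lowest to the highest of the 6 libraries and a colour for a match to the KRAB pattern. No gene with a KRAB match is among the 10 highest, and 1 is among the 28 genes with 20 FPKM or more.

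Proteins were grouped by letter patterns in the longest open reading frame of their GENCODE transcripts. A KRAB A-box pattern was found for 84 of 196 members and a SCAN pattern for 7. These patterns are strict, so a member without a match may still carry a divergent domain, as ZNF143 and its paralogue ZNF76 do for C2H2 fingers. Members with a KRAB match had a median level of 6.47 FPKM and those without one 8.98 FPKM. The 19 members with 0 matches to the C2H2 pattern had a median of 20.9 FPKM, the 86 with 1 to 9 matches 8.72 FPKM and the 91 with 10 or more matches 6.44 FPKM. Chromosome 19 held 75 members (38.3%), chromosome 7 held 20, chromosome 16 held 18 and chromosome 1 held 14.

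The edge of the rule fell among genes of like level. Just outside were ZNF283 (mean count 97.0), ZNF839 (98.2) and ZNF211 (99.7), and just inside were ZNF248 (100.2), ZNF552 (101.0) and ZNF701 (101.0). Per group, 10 members had a mean under 100 in at least 1 group. All 197 members passed the filter on low counts, and all entered the tests.

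In knockout cells few members passed the test and the values of the family lay near 0. Without the block, edgeR's quasi-likelihood test called 0 of 197 members at an adjusted p under 0.05 for sgRNA1, 0 for sgRNA2 and 0 for knockout against wild type, where the background was also 0.0% of 12282 genes in each. At an unadjusted p under 0.05 these fits had 1, 0 and 2 members, against 120, 141 and 284 of all genes. With the replicate block, 0 members were called for sgRNA1, where 0.887% of all genes tested were called. At an unadjusted p under 0.05 this fit had 14 members (7.11%, against 9.91% of all genes). For sgRNA2, 1 member was called (0.508%, against 1.38% of all genes), and for knockout against wild type 1 member (0.508%, against 1.84%). These shares lay below the background, but each rests on 1 call, and members were measured less precisely. The median SE of the blocked knockout value was 0.11 over members and 0.0816 over genes with at least 100 counts. Leaving out sgNeg2 replicate 1 gave 4 members for sgRNA1 (2.03%, against 2.57% of all genes in that fit) and 5 for sgRNA2 (2.54%, against 3.16%). Leaving out sgNeg2 replicate 2 gave 3 for sgRNA1 (1.52%, against 3.76%) and 5 for sgRNA2 (2.54%, against 5.27%). With the same block DESeq2's Wald test called 0 members for sgRNA1 (background 0.468%), 0 for sgRNA2 (background 0.631%) and 1 for knockout against wild type (background 1.37%). In edgeR's blocked fit 5 of the 12 erythroid markers were higher in knockout and 0 lower. Of the 11 markers of other cell types 6 were tested, and only COL1A1 was called. It was higher, at 0 and 1 counts with sgNeg2 and 8 to 14 in the knockout libraries. Their part in the ZNF values was not tested.

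The sizes were small in both directions. The median blocked log2 fold change of members in knockout against wild type was 0.01, with quartiles of -0.07 and 0.10, and 109 of 197 were above 0. Over all genes tested the median was 0.00 and 51.6% were above 0. The extreme members were at -0.32 and 0.42, so none reached 0.5 in size, while 1.57% of genes with at least 100 counts did. The 95% confidence interval of the blocked value lay within 1 of 0 for all 197 members, within 0.5 for 171 and within 0.25 for 52. A 2-fold difference in either direction thus lay outside the interval of every member.

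By guide, the 2 knockout groups are given side by side, since they share the sgNeg2 libraries. The median member difference to the same-numbered control library, in log2 CPM (counts scaled by library size), was 0.00 in replicate 1 and -0.04 in replicate 2 for sgRNA1. For sgRNA2 it was 0.03 in replicate 1 and 0.04 in replicate 2. Over genes with at least 100 counts the same 4 medians lay between -0.01 and 0.00. The quartiles of every pair lay on both sides of 0.

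**Figure D2:**
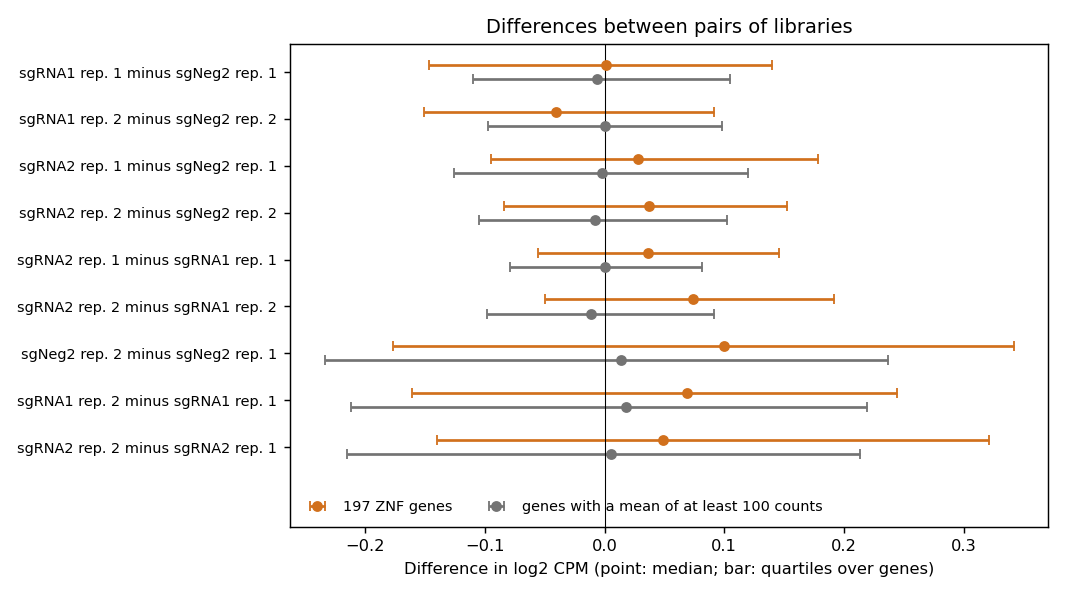
Differences in log2 CPM between pairs of libraries (horizontal axis), as the median (point) and quartiles (bar) over 197 ZNF genes and over all genes that averaged 100 counts or more. Members spread most in the pairs of replicate 2 with replicate 1, where their medians are 0.10, 0.07 and 0.05.

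ZNF629, a gene at chr16:30778456-30787205 with 19 matches to the C2H2 pattern, was the member that rose. It had 402 and 333 counts with sgNeg2, 551 and 445 with sgRNA1, and 564 and 452 with sgRNA2. Its FPKM were 7.68 and 6.16, 10.2 and 7.96, and 10.6 and 8.63 in that order. Within each replicate number both knockout libraries were above the control, and replicate 2 was below replicate 1 in every group. The 4 differences to the same-numbered control in log2 CPM were 0.39 and 0.41 for sgRNA1 and 0.39 and 0.48 for sgRNA2. In knockout against wild type the log2 fold change of ZNF629 was 0.42 (SE 0.173, edgeR adjusted p 1.00) without the block and 0.42 (SE 0.0763, adjusted p 0.00931) with it. By guide the blocked values were 0.40 (adjusted p 0.0626) for sgRNA1 and 0.44 (adjusted p 0.0272) for sgRNA2. The sgRNA2 call held in 10 of 14 blocked settings, with edgeR or DESeq2 adjusted p from 0.00384 to 0.35, the highest with DESeq2's Wald test. For sgRNA1 the adjusted p was under 0.05 in 6 of 14, from 0.0167 to 0.768. The blocked knockout call of ZNF629 was lost on leaving out sgNeg2 replicate 1 (log2 fold change 0.44, adjusted p 0.0605) or sgNeg2 replicate 2 (0.39, adjusted p 0.0643).

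The deposited estimated counts gave 3 called members of 196 with the block (1.53%, against 3.03% of all genes). They were ZNF629 at 0.43 (edgeR adjusted p 0.00226), ZNF22 at 0.32 (adjusted p 0.0208) and ZNF680 at -0.31 (adjusted p 0.0395). For sgRNA1 they gave 1 (ZNF629, background 1.39%), and for sgRNA2 they gave 2 (background 2.26%), ZNF629 and the chromosome 19 KRAB gene ZNF587 at 0.30 (adjusted p 0.0462). On whole-number counts ZNF22, ZNF680 and ZNF587 were not called in these contrasts, with blocked knockout values of 0.31, -0.26 and 0.14.

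The members with the largest knockout values that were not called are named after their values were seen. On the higher side ZNF888 had 98 and 154 counts with sgNeg2, 121 and 184 with sgRNA1, and 142 and 242 with sgRNA2 (log2 fold change 0.42, SE 0.152, edgeR adjusted p 0.23 with the block). ZNF22 had 397 and 402, 448 and 569, and 494 and 519 counts (0.31, SE 0.0856, adjusted p 0.0921). For ZNF22 all 4 knockout libraries were above both controls, while for ZNF888 the groups overlapped because replicate 2 was above replicate 1 throughout. The others were ZNF595 at 0.40 (adjusted p 0.189) and ZNF841 at 0.36 (adjusted p 0.449). ZNF841 had a mean of 85.0 counts with sgNeg2 and 112.5 over the knockout libraries, so it passed the count minimum only through the groups where it is higher.

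On the lower side ZNF428 had 375 and 458 counts with sgNeg2, 309 and 399 with sgRNA1, and 290 and 367 with sgRNA2 (-0.32, SE 0.0859, edgeR adjusted p 0.0826 with the block). ZNF566 had 144 and 138, 112 and 112, and 122 and 117 counts (-0.32, SE 0.136, adjusted p 0.333). ZNF148, a transcription factor of GC-rich promoters, had 272 and 337, 227 and 292, and 244 and 271 counts (-0.26, SE 0.0939, adjusted p 0.219). In CPM all 4 knockout libraries of these 3 genes were below both controls. ZNF189 was at -0.27 (adjusted p 0.479) and ZNF558 at -0.26 (adjusted p 0.389).

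**Figure D3:**
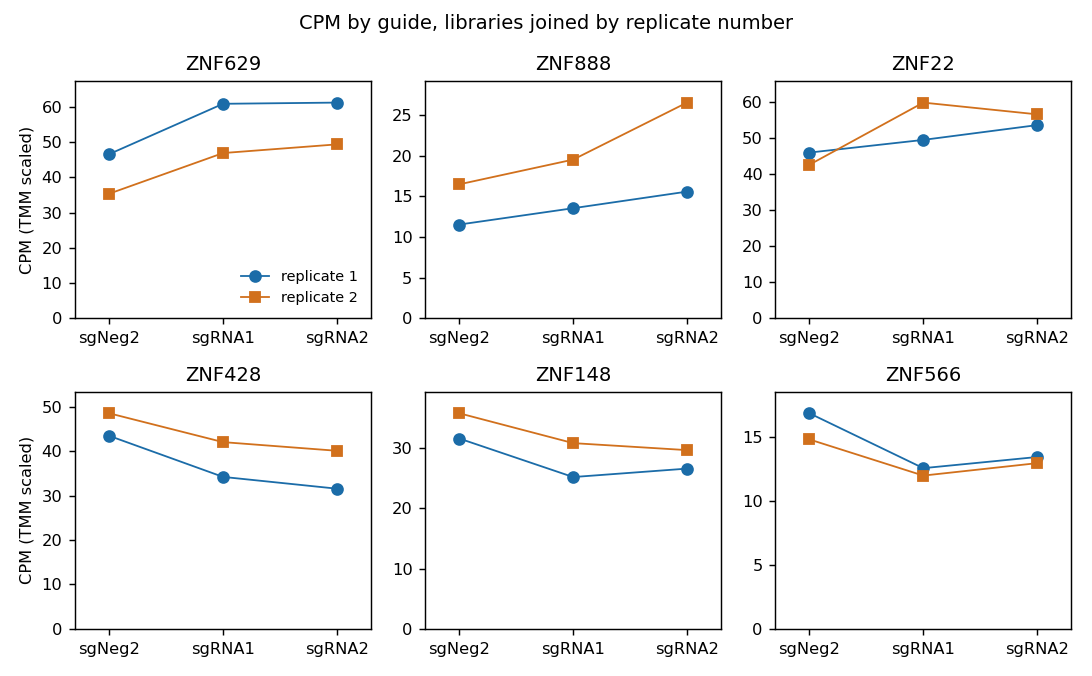
CPM scaled by TMM (vertical axes, from 0) of 6 ZNF genes in the 3 groups (horizontal axes), with libraries of the same replicate number joined. ZNF629, ZNF888 and ZNF22 are higher with both guides in both numbers, and ZNF428, ZNF148 and ZNF566 are lower in all 4 knockout libraries.

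Counting members whose groups did not overlap gave a like picture. All 4 knockout libraries were above both controls in log2 CPM for 9 members (4.57%, against 5.05% of all genes tested and 4.13% of genes with at least 100 counts). They were below both controls for 8 members (4.06%, against 4.4% and 4.75%). Among these, ZNF841 above and ZNF253 below (113.5 counts with sgNeg2 and 98.2 over the knockout libraries) passed the count minimum only through the side where they are higher, so the minimum bears on their placement. Besides those named above, ZNF669 (0.29), ZNF761 (0.20), ZNF316 (0.18), ZNF408 (0.17), ZNF574 (0.15) and ZNF511 (0.13) lay above, and ZNF680 (-0.26), ZNF200 (-0.24), ZNF253 (-0.24), ZNF529 (-0.21) and ZNF7 (-0.15) lay below. Each of these 11 had an edgeR adjusted p over 0.05 with the block.

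A ZNF gene under the count minimum was called with the block. ZNF521, a regulator of blood progenitor cells, had 163 and 74 counts with sgNeg2, 97 and 54 with sgRNA1, and 92 and 38 with sgRNA2, a mean of 86.3. Its log2 fold change in knockout against wild type was -0.78 (SE 0.174, edgeR adjusted p 0.0313), and in sgRNA2 against sgNeg2 it was -0.91 (SE 0.208, adjusted p 0.0443). Within each number both knockout libraries of ZNF521 were below the control, and the groups overlapped across numbers. It was no member and is named for that reason, after its values were seen.

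Between the guides no member was called, without the block (0 of 197, background 0.0%, 0 members at an unadjusted p under 0.05) or with it (0, background 0.0896%). At an unadjusted p under 0.05 the blocked fit had 11 members (5.58%, against 4.39% of all genes). DESeq2's Wald test with the block also called 0 (background 0.0326%). The median blocked log2 fold change of sgRNA2 against sgRNA1 was 0.06 over members and 0.00 over all genes tested, and 138 of 197 members (70.1%) were above 0, against 48.0% of genes with at least 100 counts. Within replicate 1 the median difference was 0.04 and within replicate 2 it was 0.07, against 0.00 and -0.01 for genes with at least 100 counts. Without the block and without sgRNA2 replicate 2 the median fell from 0.06 to 0.02, and without sgRNA1 replicate 1 to 0.03. Removing the trend with gene length from the blocked fit gave 0.04. The shift as a whole was not tested.

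Many members differed between the replicate numbers. Between replicate 2 and replicate 1, 81 of 197 members were called with edgeR (41.1%), 51 higher and 30 lower, where 45.0% of all genes tested (21.6% higher and 23.5% lower) and 50.5% of genes with at least 100 counts were called. The median was 0.08 over members and 0.00 over all genes tested, and 29 members reached 0.5 in size (14.7%, against 15.3% of genes with at least 100 counts), of which 3 reached 1 (ZNF697, ZNF608 and ZNF778). DESeq2's Wald test called 47 members, 28 of them higher, against 28.0% of all genes. All 3 replicate 2 libraries were above all 3 replicate 1 libraries for 61 members (31.0%, against 25.6% of all genes tested and 29.7% of genes with at least 100 counts) and below them for 33 (16.8%, against 26.5% and 26.9%). Of the members, 13 had a mean under 100 in the libraries of 1 replicate number and so passed the count minimum through the other number, where they were higher. The minimum thus bears on their differences, and 7 of them were called, 3 higher (ZNF248, ZNF124 and ZNF8) and 4 lower (ZNF697, ZNF608, ZNF627 and ZNF420).

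Most erythroid markers also differed between the replicate numbers, in both directions. Of 12 markers, 9 were higher and 2 lower in replicate 2, against 21.6% and 23.5% of all genes tested. HBE1, the embryonic beta-like globin, had the largest rise, at 827 and 4201 counts with sgNeg2. GATA1 (log2 fold change -0.15) and NFE2 (-0.43) were the 2 lower markers. The summed FPKM of the erythroid list was 14143 and 30711 with sgNeg2, 18181 and 43981 with sgRNA1, and 19227 and 41872 with sgRNA2. Most of this sum came from HBG1 (4691 and 9421 FPKM with sgNeg2) and HBG2 (7695 and 16970). Of the markers of other cell types, 0 were higher and 2 lower in replicate 2 (KRT8 and KRT18), and their summed FPKM was 545 and 395, 541 and 355, and 505 and 349.8. Their part in the ZNF differences was not tested, and in bulk RNA a change in the share of a kind of cell and a change in RNA per cell cannot be told apart.

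ZNF697, 1 of these 13, had the largest fall, with 250 and 54 counts with sgNeg2, 224 and 58 with sgRNA1, and 176 and 65 with sgRNA2. Its log2 fold change was -1.93 (SE 0.166, edgeR adjusted p 5.66e-07). ZNF608, which also passed through replicate 1, had 142 and 63, 164 and 52, and 144 and 64 counts (-1.39, SE 0.162, adjusted p 9.95e-06). In both genes every replicate 1 library was above every replicate 2 library, with the guides overlapping. ZNF277, ZNF792 and ZNF627 followed at -0.93, -0.93 and -0.84, of which ZNF627 passed the minimum through replicate 1.

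ZNF778 had the largest rise, with 134 and 401, 129 and 279, and 185 and 327 counts in the 3 groups. Its log2 fold change was 1.10 (SE 0.123, edgeR adjusted p 6.77e-06). In ZNF778 the difference between numbers was larger with sgNeg2 (1.44 in log2 CPM) than in the other groups, and replicate 2 was above replicate 1 in each. ZNF35, ZNF248, ZNF324 and ZNF81 followed at 0.78, 0.72, 0.67 and 0.66, of which ZNF248 passed the minimum through replicate 2. Among the 10 highest members, ZNF706 fell by 0.62 (adjusted p 5.8e-07) and ZNF207 rose by 0.21 (adjusted p 0.00746), both on the log2 scale.

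**Figure D4:**
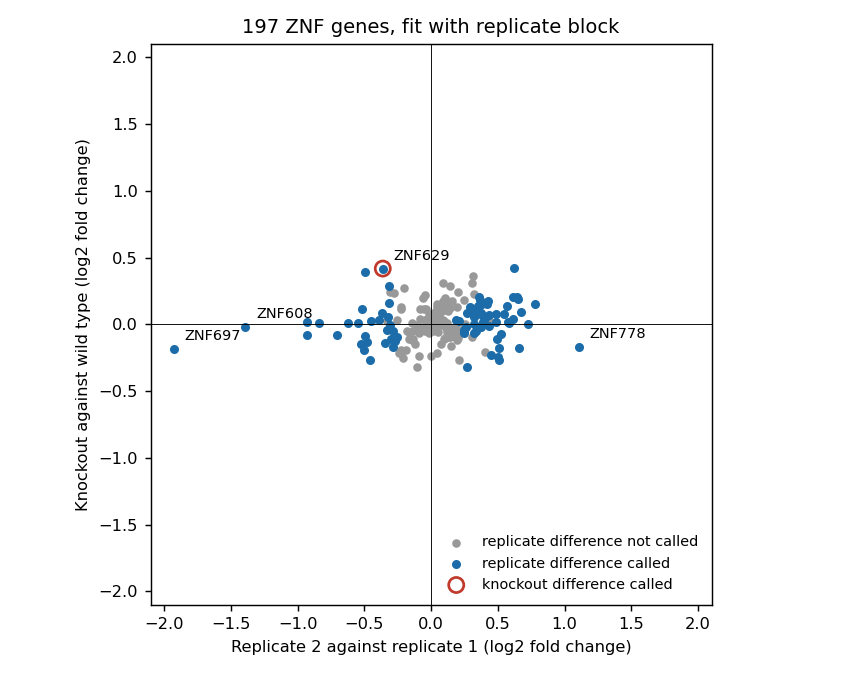
Blocked log2 fold change of knockout against wild type (vertical axis) against that of replicate 2 against replicate 1 (horizontal axis) for 197 ZNF genes, on equal scales. Knockout values lie between -0.32 and 0.42 and replicate values between -1.93 and 1.10, and ZNF629 is the gene called in the knockout contrast.

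Subgroups by domain pattern and chromosome are given by their medians. The blocked knockout median was -0.01 for members with a KRAB match (42 of 84 above 0) and 0.01 for those without (66 of 112). By position and pattern together it was 0.02 for the 51 KRAB members on chromosome 19, -0.06 for the 33 KRAB members elsewhere, 0.11 for the 24 other members on chromosome 19 and 0.01 for the 88 others elsewhere. The last group holds ZNF629. Between replicate numbers, 19 KRAB members were higher and 12 lower, and 32 members without a match were higher and 18 lower. These are 36.9% and 44.6% called, at or under the 45.0% of all genes tested. Differences between these subgroups were not tested.

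Neighbouring members were read as runs, in which at least 5 members followed each other with gaps of at most 500 kb (RefSeq positions on GRCh38.p14, with other genes possibly between them). The 10 runs found include clusters of related KRAB genes, whose reads the counting may have shared or dropped, so single values there are uncertain. Sequence identity between members was not measured. The longest run lay at chr19:51571283-53458261, with 20 members from ZNF175 to ZNF761, 19 of them with a KRAB match. Its levels ran from 1.9 to 10.6 FPKM, its knockout median was 0.02, and between replicate numbers 7 members were higher and 3 lower, with a median of 0.17. Of all genes tested, 21.6% were higher and 23.5% lower, and no run was tested against these shares. ZNF611, ZNF888 and ZNF480 rose by 0.59, 0.62 and 0.44 there, while ZNF160 and ZNF175 fell by 0.50 and 0.49, so neighbours differed in direction.

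At chr19:57428565-58475436, 11 members from ZNF749 to ZNF324, all with a KRAB match, had a replicate median of 0.33, with 5 higher and 0 lower, against the same 21.6% and 23.5% of all genes. ZNF324 was at 0.67, ZNF587 at 0.57, ZNF8 at 0.42, ZNF551 at 0.37 and ZNF544 at 0.32. ZNF274, which binds the ends of other ZNF genes and recruits the methyltransferase SETDB1, lies in the same run and had a value of -0.02 (adjusted p 0.896). The knockout median of this run was 0.09, with no member called.

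The run at chr19:55476617-56160893, with 7 members from ZNF628 to ZNF444 and no KRAB match, had a replicate median of -0.31. There 0 were higher and 3 lower (against 21.6% and 23.5% of all genes), namely ZNF579 (-0.52), ZNF581 (-0.37) and ZNF865 (-0.31). Its blocked medians against sgNeg2 were 0.23 with sgRNA1 and 0.10 with sgRNA2, with no member called. At chr7:64499069-65401136, 6 members from ZNF680 to ZNF92 had a knockout median of -0.11, and 5 of the 6 were below 0. The run at chr16:30378312-31084196 holds ZNF629 among 7 members. Its knockout median was 0.07 and no other member of it was called.

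**Figure D5:**
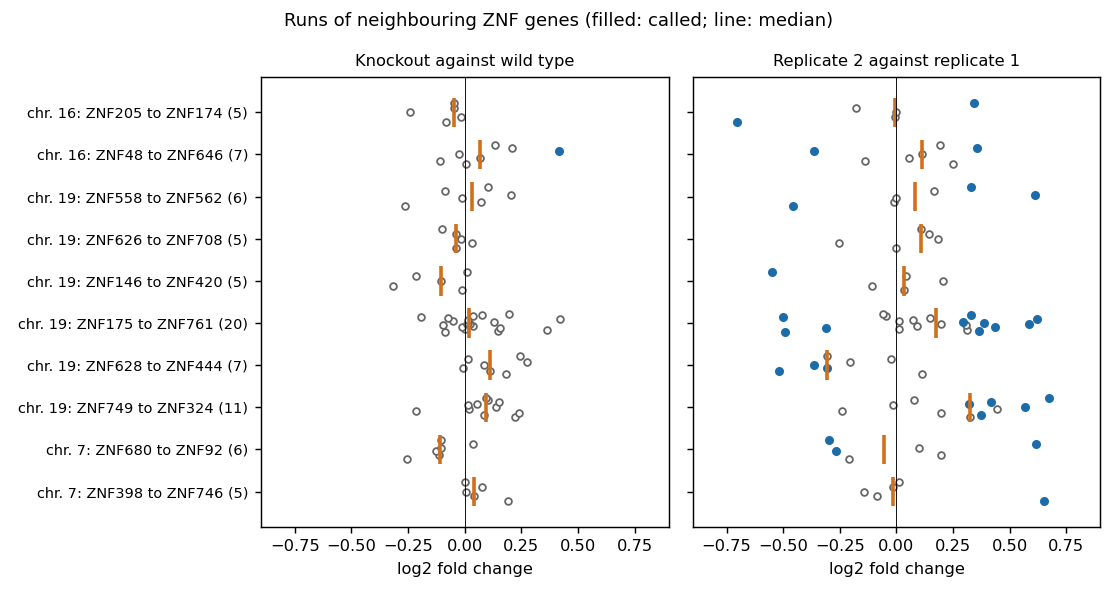
Blocked log2 fold changes (horizontal axes) of the members in 10 runs of neighbouring ZNF genes (rows, with the number of members), for knockout against wild type and for replicate 2 against replicate 1. Filled points are called, and vertical lines are medians, which lie between -0.11 and 0.11 for knockout and between -0.31 and 0.33 for the replicate numbers.

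A list of 31 ZNF genes with well known roles held 29 members, with ZNF532 at 0 counts in every library and ZNF93 at a mean of 0.5 counts. None of the 29 was called in knockout, where 1.84% of all genes were, with a median blocked log2 fold change of 0.02, and their median level was 13.3 FPKM. The promoter factor ZNF143 had 232 and 253 counts with sgNeg2, 250 and 205 with sgRNA1, and 246 and 222 with sgRNA2, a knockout value of -0.11 (SE 0.108), with the groups overlapping. ZNF91, a KRAB repressor of retrotransposons, had 101 and 126, 140 and 105, and 150 and 116 counts (0.13, SE 0.162), again with overlap.

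Between replicate numbers 7 of the 29 rose and 5 fell (41.4% called, under the 45.0% of all genes tested). ZNF326, a factor of transcript elongation and splicing, rose by 0.58 and ZNF445, a KRAB protein that guards genomic imprints, rose by 0.55. ZNF592, a partner of ZNF687 in a chromatin complex with ZMYND8, rose by 0.43 while ZNF687 fell by 0.39. ZNF330, a nucleolar protein, fell by 0.45 and ZNF217, an oncogene in breast cancer, fell by 0.32. All of these had an edgeR adjusted p under 0.05.

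The machinery through which KRAB members act was read from a list of co-repressor and heterochromatin genes, of which 23 were tested. With the block 1 was lower in knockout and 0 were higher, against 1.84% of all genes called. The lower gene was CHD4, with 5112 and 6315 counts with sgNeg2, 2682 and 3031 with sgRNA1, and 2625 and 2998 with sgRNA2 (log2 fold change -1.04, SE 0.0467, edgeR adjusted p 1.38e-08 with the block and 0.127 without it). Every knockout library of CHD4 was below both controls. TRIM28, the co-repressor that KRAB domains bind, was at a mean of 276 FPKM with a knockout value of 0.02 (SE 0.0469, adjusted p 0.904). SETDB1, the methyltransferase it recruits, was at -0.10 (SE 0.064, adjusted p 0.562).

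Whole-number and estimated counts of members were set side by side because ZNF genes share sequence with each other. The median ratio of the whole-number to the estimated count was 0.553 over members and 0.553 over all genes tested, and 0 members were under 0.25, against 360 of all genes tested. The lowest ratios were those of ZNF322 (0.262), ZNF496 (0.290) and ZNF595 (0.348), and the highest those of ZNF117 (1.118), ZNF248 (1.05) and ZNF276 (0.908). Values of these 6 genes are uncertain in either table. Among them ZNF595 had a knockout value of 0.40 on whole-number counts, and ZNF117, ZNF248 and ZNF276 were called higher in replicate 2.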

How the data were processed

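RNA-seq was made from 6 K562 libraries in 3 groups. Whole-number counts per gene symbol and a table of estimated (expected) counts, TPM and FPKM were deposited by the authors, and the submitters' processing notes name Trim Galore, HISAT2 2.2.1, SAMtools 1.9, HTSeq 0.6.1, RSEM 1.3.2, DESeq2 1.36.0 and build hg38, with no roles. The estimated counts, per the file headers the authors' expected count of each gene, need not be whole. Per the same file headers, the authors scaled FPKM and TPM by transcript length and depth, and TPM was not used. The strand setting is not given in the sources used here. Rows of reads given to no gene held 61.6% to 62.6% of each table and stayed out.

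All genes entered edgeR 4.0.16 (R 4.3.3) as whole-number counts, with the quasi-likelihood F-test, TMM and filterByExpr by group, which kept 12282 genes. A call is a Benjamini-Hochberg adjusted p under 0.05. The main design had no block. Contrasts by guide came from 3 group means, knockout against wild type from 2 genotype means, and the replicate contrast from group plus number. Same-numbered libraries deviated together (r = 0.811, 0.757 and 0.824), so the fit with a replicate block is printed beside the main one. The pairing comes from the data, as the labels do not state it. SEs are the log2 fold change over the square root of F, and log2 CPM has a prior count of 2. FPKM entered no test. Estimated counts were rounded for edgeR. Alternatives were other scalings, filters, DESeq2 1.42.0, estimated counts, removal of a length trend, other count minimums for members, and leaving out each library. The scripts were tested on simulated data. Replicates of a group differed far beyond sampling noise.

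Members and lists were chosen with earlier results of these data known. Named are called members, the 10 highest by FPKM, 3 on each side of the count minimum, the 5 largest called rises and falls between numbers, the 3 lowest and 3 highest ratios of whole-number to estimated count, and a list with known roles. Of that list, values are given for the 6 highest by FPKM, and further members were named after their values were seen. Protein patterns came from the longest open reading frames of GENCODE 29 transcripts and not, as designed, from RefSeq proteins. Promoters are from RefSeq.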

Additional observations from a re-analysis of the deposited data

How the results depend on the processing

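No result reversed direction past the threshold. Without the block, all scalings, filters, tests and left-out libraries called 0 members in the 4 contrasts of groups. With the replicate block, knockout against wild type gave 1 called member (also 1 with DESeq2 size factors, upper-quartile scaling, no filter, a mean of at least 50 counts, DESeq2's test, the length trend removed and members of at least 200 counts), 3 with estimated counts, and 2 with members of at least 50 counts or of at least 100 estimated counts. For sgRNA2 the block gave 1 (0 with DESeq2's test, also 1 with DESeq2 size factors, upper-quartile scaling, a mean of at least 50 counts, the length trend removed and members of at least 200 counts), 3 with no filter, and 2 with estimated counts, members of at least 50 counts or members of at least 100 estimated counts. For sgRNA1 no filter, estimated counts and the length trend removed gave 1 each. Leaving out each library under the block gave 0 to 1 calls for knockout, 0 to 5 for sgRNA2, 0 to 4 for sgRNA1 and 57 to 78 between replicate numbers, where DESeq2's test gave 47 in place of 81. The highest counts of 5 and 4 came without sgNeg2 replicate 1, and sgRNA2 also had 5 and sgRNA1 had 3 without sgNeg2 replicate 2. In every blocked fit of a group contrast the share of members called was below that of all genes, but members were measured less precisely, as given above. With a control left out the remaining control library is assumed to vary like the other groups. Between replicate numbers the share of members called was also below that of all genes with any library left out. With DESeq2's test it was 23.9% there, against 28.0% of all genes. Without the block, leaving out libraries moved the medians to -0.042 to 0.034 for sgRNA1, -0.003 to 0.094 for sgRNA2, -0.024 to 0.064 for knockout, 0.016 to 0.077 between guides and, with the block, 0.061 to 0.074 between numbers. With a minimum of 50 counts, 14 members lay above both controls and 9 below, in place of 9 and 8. With a minimum of 200 counts, 7 lay above and 5 below. The lower minimum keeps more members and the higher one fewer, so these counts alone do not show a changed share. The block changed no call of another named member. Of 936 alternatives for 36 named members in knockout against wild type, 13 in 2 genes (ZNF629 and ZNF22) called what the main fit did not, as did ZNF680, outside those 36, with estimated counts (-0.31, adjusted p 0.0395), and 14 changed the sign of an uncalled value by more than its SE. For single guides under the block, ZNF428 (adjusted p 0.047) and ZNF888 (0.0325) were also called for sgRNA2 with no filter and ZNF587 with estimated counts. Leaving out a control library called ZNF22, ZNF595 and ZNF778 or ZNF558 and ZNF789 for sgRNA1, and ZNF22, ZNF276, ZNF512 and ZNF888 or ZNF121, ZNF367, ZNF398 and ZNF428 for sgRNA2. The cause of these shifts was not tested. The control group had 2 libraries, which limits every knockout contrast, and at this depth the median 95% half-width of a blocked knockout value was 0.235.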
